A study of Homo sapiens with 28 samples.

Results

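The genes described here are 32 markers of intestinal epithelial identity, found by symbol among the 62703 genes that both raw count tables list. They comprise 6 intestinal transcription factors, 3 broader epithelial transcription factors, 2 epithelial splicing factors, 8 cell surface and membrane proteins, 3 brush border proteins, 4 cytoskeletal or cytosolic effectors, 2 secretory proteins and 4 proteases or trafficking proteins. The rule is a list of symbols with no threshold on a measured value. All 32 members were found in both tables.

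The study sequenced polyA RNA from 2 established human colon cancer cell lines, MDST8 and LoVo, in which the transcription factor TWIST1 was targeted by gene editing or by shRNA. MDST8 was sequenced as the wild type (WT) line and as 5 clones labelled TWIST1 knockout (clones 1.1, 2.2, 3.2, 3.5 and 3.6), each a line grown from a single edited cell, of which the last 3 carry the same guide label. LoVo was sequenced with a control shRNA or with an shRNA against TWIST1, and each of these 8 groups had 3 libraries. TWIST1 chromatin immunoprecipitation (ChIP) was also sequenced, as 1 peak list from unedited cells of each line.

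In the lining of the colon, the CDX homeobox factors and the HNF4 nuclear receptors, together with GATA6, switch on the genes that make a cell absorptive or mucus-secreting. ESRP1 and ESRP2 set the epithelial pattern of alternative splicing, and proteins such as villin, cadherin-17 and the CEACAMs build the brush border and the cell surface. TWIST1 is a basic helix-loop-helix factor best known for driving epithelial cells toward a mesenchymal state, and binds short DNA words called E-boxes.

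Library totals were 17252883 to 22217009 counts for MDST8 and 16567606 to 20889529 counts for LoVo. TWIST1 itself had 845, 1034 and 797 counts in the WT libraries of MDST8, and against WT its log2 fold change lay between −0.65 in clone 2.2 and 0.22 in clone 3.2, so that its RNA was present in every clone. In LoVo the gene had 0 counts in all 3 libraries labelled control and 73, 89 and 93 counts in those labelled TWIST1 shRNA, at least 30.03-fold higher, which runs against the labels. The LoVo groups are therefore called here the libraries labelled control and the libraries labelled TWIST1 shRNA, and every direction between them is that of the labels. Whether the labels are exchanged, or the groups are different cells, was not tested, and an exchange would reverse every direction given below between these groups. Further, 51 genes without a count in any library labelled control had at least 100 counts in every library labelled TWIST1 shRNA, and 6 genes showed the reverse, whereas no clone of MDST8 differed from WT in this way at more than 2 genes. Mitochondrial genes took 3.49 to 3.96% of counts where control was the label and 10.9, 6.24 and 5.47% where it was TWIST1 shRNA, and their part in the differences below was not tested.

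The promoters below belong to 2 regulators and 4 effector genes whose levels differed between the cells and whose windows hold at least 1 of the words searched. RefSeq promoters on GRCh38.p14, running from 250 bases before to 50 bases after the transcription start, were found for 19 of the 32 members. Each is written 5′ to 3′ on the strand of its gene. Capitals mark every match, on either strand, to any of 5 short words that were searched in each window. CATCTG is the E-box on which the study centres, and it reads as CAGATG on the other strand. CACGTG is a further E-box and is its own complement. TTTATG stands for the CDX type of site and reads as CATAAA when it is found on the other strand. AGATAA stands for the type of site bound by the family of GATA6 and is searched as TTATCT on the other strand. CAAAGT stands for part of an HNF4 site, with ACTTTG as the form it takes on the other strand.
CDX2, chr13:27969266-27969565, minus strand: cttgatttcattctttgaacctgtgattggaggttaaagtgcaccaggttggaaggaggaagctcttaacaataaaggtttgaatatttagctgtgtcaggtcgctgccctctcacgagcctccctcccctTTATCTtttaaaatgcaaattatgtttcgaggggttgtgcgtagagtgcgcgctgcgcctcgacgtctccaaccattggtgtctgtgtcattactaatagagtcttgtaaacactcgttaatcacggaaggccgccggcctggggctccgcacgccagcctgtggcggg
HNF4A, chr20:44355449-44355748, plus strand: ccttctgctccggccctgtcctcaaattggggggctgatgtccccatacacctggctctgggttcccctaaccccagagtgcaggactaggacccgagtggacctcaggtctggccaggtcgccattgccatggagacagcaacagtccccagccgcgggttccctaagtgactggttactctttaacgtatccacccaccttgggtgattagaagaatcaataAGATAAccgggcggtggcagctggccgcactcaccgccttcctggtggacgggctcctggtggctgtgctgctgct
KRT20, chr17:40885193-40885492, minus strand: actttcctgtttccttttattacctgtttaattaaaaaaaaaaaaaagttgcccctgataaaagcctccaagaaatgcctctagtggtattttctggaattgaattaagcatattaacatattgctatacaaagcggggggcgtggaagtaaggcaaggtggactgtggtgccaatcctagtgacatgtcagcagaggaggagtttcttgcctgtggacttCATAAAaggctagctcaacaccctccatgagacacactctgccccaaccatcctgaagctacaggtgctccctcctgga
AGR2, chr7:16804950-16805249, minus strand: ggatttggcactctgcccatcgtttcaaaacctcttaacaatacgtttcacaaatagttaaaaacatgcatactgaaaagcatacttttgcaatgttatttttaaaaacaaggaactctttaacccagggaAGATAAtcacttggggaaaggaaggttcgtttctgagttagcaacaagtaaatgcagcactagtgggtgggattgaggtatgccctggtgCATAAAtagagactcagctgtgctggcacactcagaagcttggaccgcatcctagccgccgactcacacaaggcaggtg
CEACAM5, chr19:41708376-41708675, plus strand: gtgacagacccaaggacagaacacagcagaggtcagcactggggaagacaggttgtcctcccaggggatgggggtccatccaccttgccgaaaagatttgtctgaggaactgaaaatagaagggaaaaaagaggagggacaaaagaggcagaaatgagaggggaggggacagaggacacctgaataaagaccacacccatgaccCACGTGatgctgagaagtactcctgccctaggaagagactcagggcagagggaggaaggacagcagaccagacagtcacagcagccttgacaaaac
CEACAM6, chr19:41755280-41755579, plus strand: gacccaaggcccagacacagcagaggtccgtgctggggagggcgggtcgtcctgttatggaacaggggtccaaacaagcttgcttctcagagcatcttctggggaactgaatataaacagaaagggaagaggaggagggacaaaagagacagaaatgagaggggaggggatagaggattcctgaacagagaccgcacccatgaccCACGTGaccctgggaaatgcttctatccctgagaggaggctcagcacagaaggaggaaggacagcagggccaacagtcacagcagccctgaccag

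CDX2 and HNF4A each carried a GATA-type word, KRT20 a CDX-type word, and AGR2 one of each, whereas the neighbouring paralogs CEACAM5 and CEACAM6 carried CACGTG at nearly the same place in their windows. HNF4A has a further RefSeq promoter, not printed, which held none of the words. Among the 24 promoters of the 19 members, 6 held the CDX-type word, against 10.6% of all 35116 RefSeq promoters. These 6 belong to 5 members, since both windows of TSPAN8 overlap. The GATA-type word was in 4 (10.3% of all promoters), the HNF4-type word in 3 (11.9%) and CACGTG in 2 (7.26%). CATCTG was in 0 of the 24, against 14.7% of all promoters. No matches of different words overlapped. These are matches of letters in a short window and do not show binding.

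**Figure D1:**
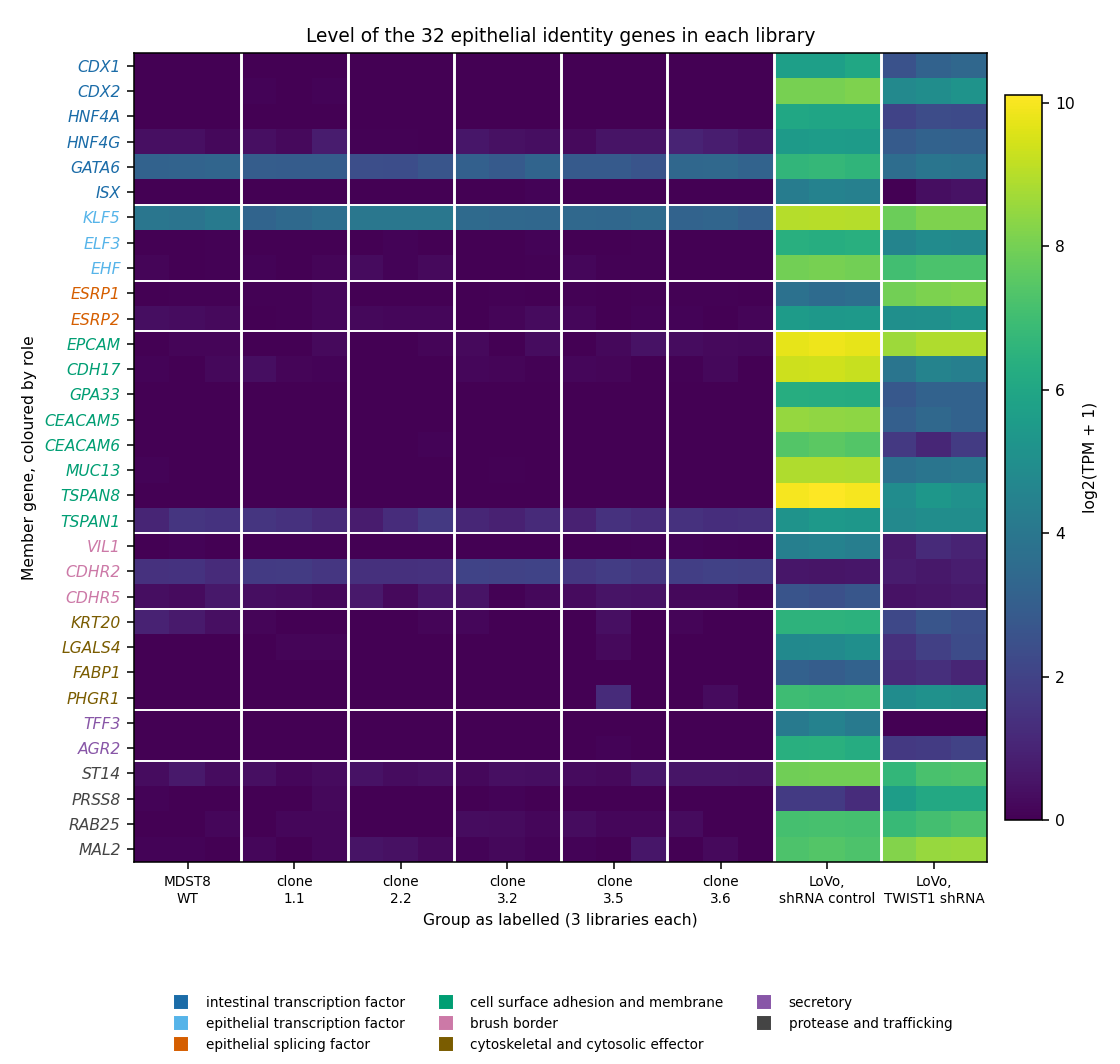
Each column is 1 library, grouped as labelled, and each row 1 of the 32 members, coloured by role; the shade gives log2(TPM + 1), where TPM is the level per length of exon, scaled to the same sum in every library. KLF5 and GATA6 stand out in the 18 MDST8 libraries, with CDHR2 and TSPAN1 fainter, whereas nearly every member is visible in LoVo, most of them brighter in the libraries labelled control than in those labelled TWIST1 shRNA.

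The first question was how much of this program each line expresses. Every member was counted in all 3 LoVo libraries labelled control, whereas MDST8 expressed hardly any of them. Summed over the 32 members, the level was 27.9 to 31.3 TPM in the WT libraries of MDST8 and 5953 to 6218 TPM in the LoVo libraries labelled control. In WT MDST8, 13 of the 32 members had 0 counts in all 3 libraries, and the clones had 14, 18, 13, 12 and 15 such members in the order 1.1, 2.2, 3.2, 3.5 and 3.6. Over all 18 MDST8 libraries 6 members were never counted and 18 had at most 3 counts in any library. KLF5, GATA6 and CDHR2 carried 84.7 to 87.8% of the summed TPM in WT, and none of the other 29 members exceeded 24 counts in any MDST8 library. In bulk RNA, fewer expressing cells and less RNA per cell cannot be told apart.

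Of the epithelial markers outside the list, some were absent from MDST8 and others were low. CDH1, which encodes E-cadherin, had 0 counts in every WT library and 4448 to 5472 counts in the LoVo libraries labelled control. KRT19, an epithelial keratin, had 2 to 13 counts against 10147 to 12646. KRT18 and KRT8, the paired keratins of simple epithelia, were expressed in WT MDST8, at 1173 to 1195 and 196 to 231 counts, against 29714 to 37445 and 71353 to 88846 in LoVo labelled control. VIM, which encodes the mesenchymal filament vimentin, had 66447 to 69548 counts in WT MDST8 and 1760 to 2236 in LoVo labelled control. A list of 20 mesenchymal genes summed to 9050 to 9152 TPM in WT MDST8, against 316 to 333 in LoVo labelled control.

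In a single fit of all 24 libraries, 22 members were expressed highly enough to be tested. A gene was called where its log2 fold change exceeded 0.58 in size and its adjusted p was below 0.05 by edgeR's quasi-likelihood test. Against LoVo labelled control, 21 of the 22 were called lower in WT MDST8 and 1 higher, where 30.6% of all genes tested were called lower and 34% higher. Against LoVo labelled TWIST1 shRNA the counts were again 21 lower and 1 higher, where 29.1% of all genes were lower and 30.6% higher. Most of the 22 passed the filter on low counts through the LoVo libraries, where they are high, so a call of lower in MDST8 was nearly fixed by the filter and these counts support nothing. Under a stricter filter, with no offset to the geometric mean, 4 members were called lower. The lines were also processed as separate tables, so cell line and batch cannot be told apart.

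CDX1, CDX2, HNF4A and ISX were among the members without any count in WT MDST8, whereas HNF4G had 7, 7 and 4 counts. CDX2 was at least 1589-fold lower there than in LoVo labelled control, taking 3 counts per library as the floor, and HNF4A at least 1051-fold lower. The bounds were at least 165-fold for CDX1, 111-fold for ISX, a homeobox factor of the intestine, 2330-fold for CEACAM5 and 4226-fold for TSPAN8, a tetraspanin of the colon surface. Against the libraries labelled TWIST1 shRNA, where these genes were themselves low, the bounds were smaller, at 205-fold for CDX2, 71.0-fold for HNF4A and 157-fold for TSPAN8.

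The members with the highest counts in WT MDST8 were KLF5, GATA6, CDHR2 and TSPAN1. KLF5, a Krüppel-like factor of proliferating crypt cells, had a log2 fold change of −5.37 (SE 0.06) in WT MDST8 against LoVo labelled control and −4.51 (SE 0.06) against LoVo labelled TWIST1 shRNA. For GATA6, a zinc-finger factor of endodermal epithelium, these values were −3.87 (SE 0.08) and −1.01 (SE 0.10). TSPAN1, a further tetraspanin, differed by −4.90 (SE 0.19) and −4.56 (SE 0.19). The one member higher in MDST8 was CDHR2, a protocadherin that links neighbouring microvilli, by 1.35 (SE 0.23) and 0.85 (SE 0.22) in the edgeR fit. CDHR2 passed the filter of that fit through the MDST8 libraries, where it is high, and was under the filter in LoVo alone. Its call of higher was thus nearly fixed by the filter and supports nothing. CDHR2 was low in both lines, with 42, 44 and 34 counts in WT MDST8, 13, 14 and 14 in LoVo labelled control and 23, 15 and 21 in LoVo labelled TWIST1 shRNA.

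The next question was whether these genes differed between the MDST8 clones labelled TWIST1 knockout and WT. None of the members that WT lacked reached a testable level in any clone. Summed member TPM was 21.5 to 23.95 in clone 1.1, 23.4 to 26.1 in clone 2.2 and 21.2 to 23.9 in clone 3.2. It was 20.4 to 23.5 in clone 3.5 and 21.2 to 25.2 in clone 3.6. Every clone thus lay below the 27.9 to 31.3 of WT, a sum made up mostly of KLF5, GATA6 and CDHR2. Only KLF5, GATA6 and CDHR2 passed the filter on low counts, so the counts that follow are of 3 tested members and not of 32. Each clone was compared with the same 3 WT libraries, so the comparisons are not independent. The labels do not say that replicates were separate cultures, and p-values therefore measure the spread between these libraries, which may be technical.

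KLF5 (chr13:73054976-73077541, plus strand, hg38) was lower than WT in 4 of the 5 clones, 2 of them past both thresholds. Its levels in CPM, counts scaled to library size with TMM normalization, were 12.99, 11.8 and 15.04 in the WT libraries A, B and C. The CPM were 7.08, 7.402 and 6.22 in clone 3.6 and 9.17, 8.36 and 8.05 in clone 3.2. All 6 values lay below every WT value. Here and below, the share of all genes without overlap between a clone and WT was not counted. Against WT, edgeR gave a log2 fold change of −0.95 (SE 0.11, adjusted p = 2.79e-09) in clone 3.6 and −0.64 (SE 0.11, adjusted p = 4.16e-06) in clone 3.2. The levels in clone 1.1, of 7.68, 8.90 and 10.3 CPM, and in clone 3.5, of 9.02, 8.70 and 9.59 CPM, were also all below WT. Their log2 fold changes of −0.57 and −0.54 had edgeR adjusted p-values of 2.4e-05 and 5.28e-05 but missed the size threshold of 0.58. Clone 2.2 was different, at 13.6, 13.3 and 13.6 CPM inside the WT range, with a log2 fold change of 0.02 and a 95% interval from −0.18 to 0.22.

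The size threshold decided several of these calls. Without WT library C the difference of clone 3.2 was −0.53 and was not called. Without WT library B, KLF5 was called in clone 1.1 at −0.64 and in clone 3.5 at −0.61. It was also called in clone 1.1 at −0.68 without that clone's library C, and in clone 3.5 at −0.59 without that clone's library C.

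GATA6 (chr18:22169589-22202528, plus strand) was called lower in clone 2.2 alone. WT libraries held 7.38, 7.34 and 8.11 CPM and clone 2.2 held 4.08, 3.86 and 4.88 CPM, with no overlap. The log2 fold change was −0.83 (SE 0.14, edgeR adjusted p = 3.07e-06). Clone 3.5, at 5.95, 5.94 and 5.02 CPM, also lay below WT, with a log2 fold change of −0.44 that did not reach the size threshold (edgeR adjusted p = 0.0047). In clone 1.1 the libraries held 6.35, 6.03 and 6.02 CPM, a log2 fold change of −0.31. The ranges of clone 3.2 (7.07, 5.71 and 7.57 CPM) and clone 3.6 (8.13, 8.35 and 7.35 CPM) overlapped that of WT, with log2 fold changes of −0.17 and 0.06. Clone 2.2, the clone with the lowest GATA6, was thus the clone in which KLF5 stayed in the WT range.

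CDHR2 (chr5:176542511-176595974, plus strand) was the 1 tested member that was higher in clones than in WT. Its CPM were 2.25, 2.24 and 1.73 in WT, 4.14, 3.78 and 3.91 in clone 3.2 and 3.33, 3.55 and 3.51 in clone 3.6. Both clones lay wholly above WT, with log2 fold changes of 0.92 (SE 0.18, edgeR adjusted p = 4.06e-05) and 0.74 (SE 0.18, edgeR adjusted p = 0.000558). Clone 1.1 held 3.04, 3.06 and 2.59 CPM and clone 3.5 held 2.83, 3.34 and 2.84 CPM, also above every WT value. Their log2 fold changes of 0.48 and 0.54 did not pass the size threshold. The second of these was called at 0.61 without WT library A, at 0.61 without WT library B and at 0.58 without that clone's own library A. Clone 2.2, at 2.17, 2.1 and 2.23 CPM, stayed within the WT range, with a log2 fold change of 0.06 and an interval from −0.32 to 0.45. CDHR2 shares 3.21% of its exon bases with GPRIN1 on the opposite strand, and the counting did not use strand. GPRIN1 had 1436 to 1719 counts in WT, 1173 to 1629 in the clones, 645 to 845 in LoVo labelled control and 823 to 872 in LoVo labelled TWIST1 shRNA, so it was also higher in MDST8 than in LoVo.

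**Figure D2:**
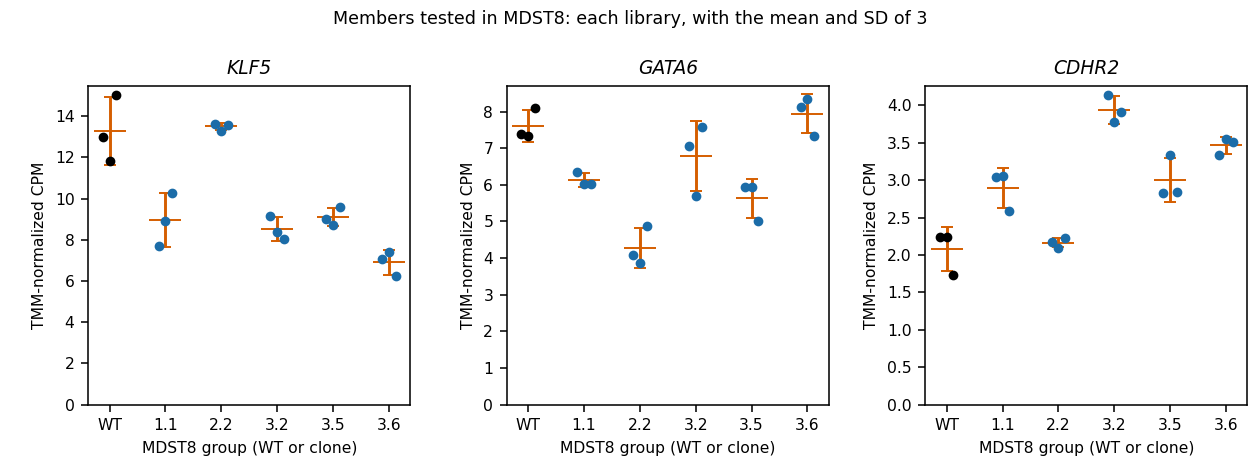
Points are single libraries of WT (black) and of each clone (blue) on an axis of TMM-normalized CPM that starts at 0, with orange bars for the mean and SD of 3. KLF5 lies below WT in clones 1.1, 3.2, 3.5 and 3.6, GATA6 is lowest in clone 2.2, and CDHR2 is highest in clone 3.2.

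With only 3 members tested, shares of them cannot be read closely against those of the whole table. Of the 3 members tested, clone 1.1 had 0 called higher and 0 lower, where 12% of all 13706 genes tested were called higher and 7.49% lower. Clone 2.2 had 0 higher and 1 lower (8.05% and 6.64% of all genes). Clones 3.2 and 3.6 each had 1 higher and 1 lower, beside 10.9% and 6.09% of all genes in clone 3.2 and 15.3% and 11.7% in clone 3.6. Clone 3.5 had 0 of either, beside 11.2% and 7.25%. All 3 members differed among the 5 clones, with edgeR adjusted p-values of 2.78e-08 for KLF5, 7.19e-06 for GATA6 and 0.000958 for CDHR2, but so did 81% of all genes tested.

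Among members under the filter, KRT20 and HNF4G came closest to a pattern. KRT20, a keratin of mature enterocytes, had 8, 6 and 3 counts in WT and at most 1 in any library of clones 1.1, 2.2, 3.2 and 3.6. HNF4G, a nuclear receptor of the enterocyte, had 7, 7 and 4 counts in WT, 1, 1 and 0 in clone 2.2 and 24, 16 and 13 in clone 3.6. When the filter was removed, edgeR called KRT20 lower in those 4 clones and HNF4G lower in clone 2.2 and higher in clone 3.6. At such counts the depth of the libraries limits what can be read from either gene.

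The last comparison was between the LoVo groups, where nearly all members could be tested. With TWIST1 shRNA as the label, 25 of the 31 members tested were called lower than with control, 3 were called higher (ESRP1, PRSS8 and MAL2) and 3 were not called (ESRP2, TSPAN1 and RAB25). Of all 14270 genes tested, 26.1% were called lower and 26.6% higher. The median log2 fold change was −2.85 over the members, with TFF3 at its bound or at its fitted value, and 0.01 over all genes. Leaving out any 1 of the 6 libraries, including replicate 1 with its high mitochondrial share, left 25 called lower and 3 higher. Among the 25, TFF3, ISX, CDHR5 and FABP1 passed the filter on low counts through the libraries labelled control, where they are high. Their calls of lower were nearly fixed by the filter and support nothing. Under the filter with no offset, 23 members were called lower. The remaining member, CDHR2, was under the filter.

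**Figure D3:**
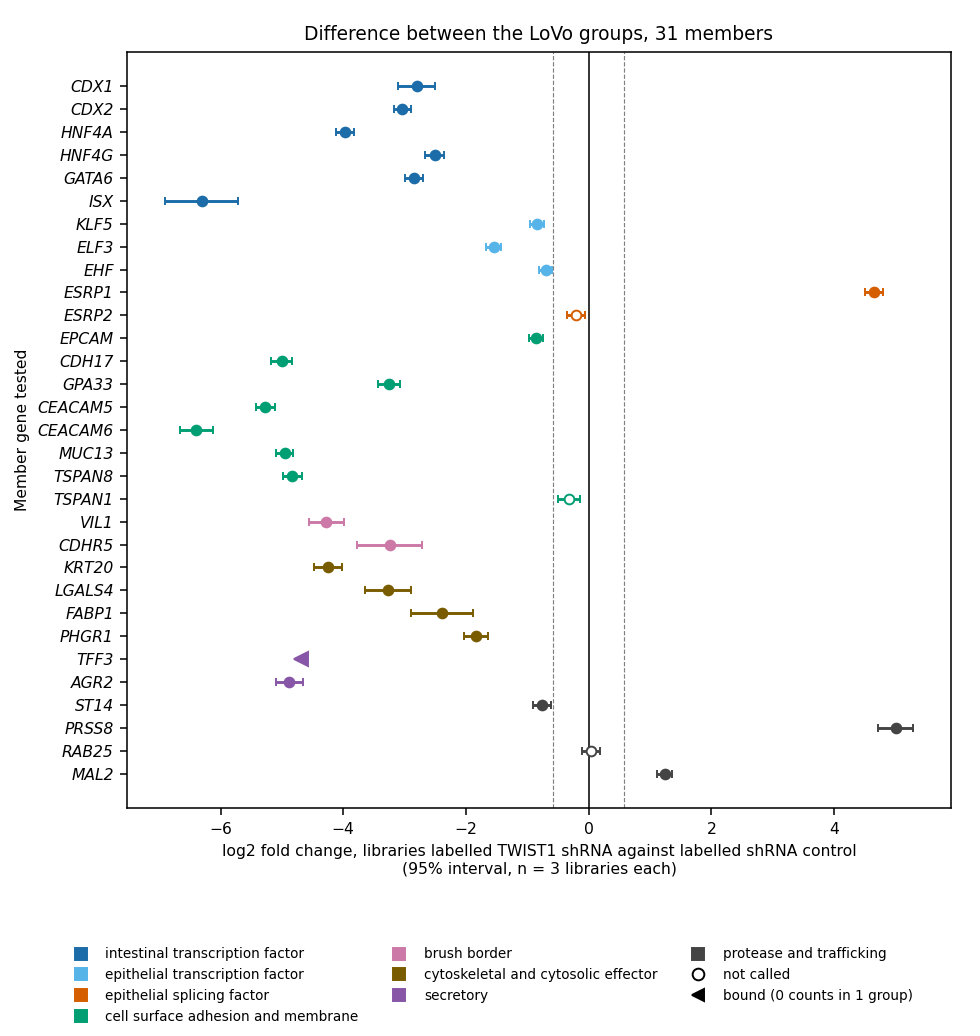
Points give the log2 fold change of each of the 31 members tested, libraries labelled TWIST1 shRNA against those labelled control (3 each), with 95% intervals; colours mark roles, open circles members not called, dashed lines ±0.58, and the triangle the bound for TFF3, which had 0 counts in 1 group. Most members lie left of the lines, between −0.70 and −6.39, and only ESRP1, PRSS8 and MAL2 lie to the right.

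All 6 intestinal transcription factors were called lower, where 26.1% of all genes tested were. For ISX the call was nearly fixed by the filter, as given above, and supports nothing. HNF4A (chr20:44355699-44432845, plus strand), with a promoter printed above, held 178, 166 and 168 CPM in the libraries labelled control and 10.0, 11.6 and 11.05 CPM in those labelled TWIST1 shRNA. Its log2 fold change was −3.97 (SE 0.08, edgeR adjusted p = 7.94e-17). CDX2 (chr13:27960918-27969315, minus strand), the homeobox factor that specifies intestine, went from 250, 251 and 273 CPM to 29.4, 30.1 and 34.8 CPM, or −3.04 (SE 0.07, edgeR adjusted p = 1.3e-15). In both genes the groups were far apart beside the spread within them.

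CDX1, the close relative of CDX2, was lower throughout, with 24.7, 24.6 and 30.96 CPM for the label control and 2.83, 4.03 and 4.66 CPM for TWIST1 shRNA (log2 fold change −2.80, SE 0.16). HNF4G measured 58.4, 61.1 and 60.1 CPM against 10.1, 10.9 and 10.6 CPM (−2.51, SE 0.08). GATA6 measured 104, 108 and 101 CPM against 13.9, 15.4 and 14.1 CPM (−2.85, SE 0.07). Its antisense neighbour GATA6-AS1, which overlaps 10.9% of its exon bases, was also lower, at 131 to 133 counts against 3 to 8, and unstranded counting cannot separate reads in the overlap. ISX, which controls vitamin A uptake, fell nearly to nothing: 270, 393 and 327 counts became 0, 5 and 7 counts (log2 fold change −6.31, SE 0.31). Together the 6 genes summed to 543 to 574 TPM in the libraries labelled control and 51.5 to 70.3 TPM in those labelled TWIST1 shRNA.

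The 3 broader epithelial factors were called lower by smaller amounts, where 26.1% of all genes tested were called lower. KLF5 held 508, 525 and 503 CPM in the libraries labelled control and 276, 292 and 290 CPM in those labelled TWIST1 shRNA (log2 fold change −0.84, SE 0.06, edgeR adjusted p = 5.16e-10). EHF, an ETS factor of epithelia, held 444, 477 and 443 CPM against 284, 280 and 276 CPM (−0.70, SE 0.06). ELF3, an ETS factor of differentiating gut epithelium, held 162, 153 and 161 CPM against 52.9, 57.0 and 52.9 CPM (−1.55, SE 0.06). No library of either group overlapped the other for any of the 3, but the share of all genes without overlap was not counted. ELF3 shares 18.5% of its exon bases with ELF3-AS1, which had 70 to 87 counts labelled control and 55 to 75 labelled TWIST1 shRNA.

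The splicing factors parted. ESRP1 (chr8:94641074-94707466, plus strand) was low in the libraries labelled control, at 16.7, 14.2 and 15.6 CPM, and high in those labelled TWIST1 shRNA, at 395, 377 and 394 CPM. Its log2 fold change was 4.65 (SE 0.07, edgeR adjusted p = 1.93e-17). By TPM, which allows for length, ESRP1 ranked 28 of the 32 members in the first group and 3 in the second. ESRP2, its paralog, hardly differed, at 63.5, 57.4 and 59.1 CPM against 54.2, 47.4 and 54.2 CPM. The log2 fold change of −0.21 (95% interval −0.35 to −0.06, edgeR adjusted p = 0.0167) did not reach the size threshold.

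Surface and membrane proteins made up most of the program and most of its difference. Their 8 genes summed to 3575 to 3815 TPM in the libraries labelled control and 492 to 600 TPM in those labelled TWIST1 shRNA. CDH17, the liver-intestine cadherin, held 679, 700 and 644 CPM against 18.05, 23.9 and 21.2 CPM (log2 fold change −5.00, SE 0.09). TSPAN8, the member with the highest TPM in the libraries labelled control, held 661, 727 and 669 CPM against 22.7, 27.0 and 22.8 CPM (−4.83, SE 0.08). It ranked 9 by TPM in those labelled TWIST1 shRNA. MUC13, a transmembrane mucin, held 452, 450 and 445 CPM against 14.1, 14.01 and 15.3 CPM (−4.96, SE 0.07). GPA33, a colon cell surface antigen, held 61.7, 59.9 and 59.1 CPM against 5.55, 6.71 and 6.72 CPM (−3.25, SE 0.09).

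The paralogs CEACAM5, which encodes carcinoembryonic antigen, and CEACAM6, whose promoters share the CACGTG word printed above, showed some of the largest differences. CEACAM5 (chr19:41708585-41730433, plus strand) held 391, 375 and 368 CPM against 9.63, 10.9 and 8.88 CPM (log2 fold change −5.27, SE 0.08). CEACAM6 (chr19:41750977-41772211, plus strand) held 134, 153 and 137 CPM against 2.09, 0.934 and 1.94 CPM (−6.39, SE 0.14). Because their sequences are alike, the split of reads between them is uncertain. EPCAM, the pan-epithelial adhesion molecule, was called lower by far less, at −0.85 (SE 0.06), from 565, 606 and 563 CPM to 311, 325 and 323 CPM. EPCAM therefore had the highest TPM of all members in the libraries labelled TWIST1 shRNA, at a mean of 449, after a mean of 877 in those labelled control. TSPAN1 was not called, with 22.8, 26.9 and 25.6 CPM against 20.2, 20.02 and 20.2 CPM (−0.32, 95% interval −0.50 to −0.14).

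The tested brush border genes, VIL1 and CDHR5, and all 4 cytoskeletal or cytosolic genes of the enterocyte were called lower. The share over all genes tested was 26.1%. For CDHR5 and FABP1 the call was nearly fixed by the filter and supports nothing. VIL1, which encodes villin, the actin bundler of microvilli, held 36.9, 40.3 and 35.8 CPM in the libraries labelled control and 1.41, 2.51 and 1.94 CPM in those labelled TWIST1 shRNA (log2 fold change −4.28, SE 0.14). VIL1 shares 44.2% of its exon bases with USP37, which had 208 to 278 counts in the first group and 317 to 375 in the second. CDHR5, the partner of CDHR2 in the links between microvilli, held 5.40, 4.70 and 5.79 CPM against 0.523, 0.525 and 0.611 CPM (−3.24, SE 0.27). CDHR2, under the filter, had the higher counts in the libraries labelled TWIST1 shRNA, as given above, with an edgeR log2 fold change of 0.46 and an adjusted p of 0.4 in the fit without a filter.

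KRT20 (chr17:40875889-40885242, minus strand) held 47.9, 48.0 and 45.9 CPM against 2.197, 2.92 and 2.33 CPM (log2 fold change −4.25, SE 0.11). LGALS4, a galectin of the intestinal epithelium, held 16.4, 16.7 and 19.4 CPM against 1.20, 1.75 and 2.50 CPM (−3.27, SE 0.19). FABP1, the fatty acid carrier of enterocytes and hepatocytes, was already low, at 5.09, 4.51 and 5.28 CPM against 1.05, 1.05 and 0.722 CPM (−2.39, SE 0.25). None of these groups overlapped, though the share of all genes without overlap was not counted. PHGR1, a small protein of the gut epithelium, was called lower at −1.84 (SE 0.10), from 29.8 to 32.1 CPM down to 8.11 to 8.998 CPM.

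Both secretory genes were called lower, where 26.1% of all genes tested were, but the call of TFF3 was nearly fixed by the filter and supports nothing. AGR2, a disulfide isomerase that helps goblet cells make mucin, held 61.4, 62.7 and 57.0 CPM in the libraries labelled control and 1.99, 1.87 and 2.28 CPM in those labelled TWIST1 shRNA (log2 fold change −4.88, SE 0.11). TFF3, the trefoil peptide of goblet cells, had 69, 107 and 74 counts in the first group and 0 in every library of the second. That is at least 25.9-fold lower, taking 3 counts per library as the floor.

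The 4 proteases and trafficking genes went different ways. PRSS8 (chr16:31131433-31135727, minus strand), which encodes the membrane protease prostasin, had 31, 38 and 21 counts in the libraries labelled control and 889, 970 and 1015 counts in those labelled TWIST1 shRNA. Its log2 fold change was 5.00 (SE 0.15, edgeR adjusted p = 1.18e-14). MAL2, a protein of apical transport, was also higher, at 145 to 158 CPM against 331 to 370 CPM (1.24, SE 0.06). ST14, which encodes matriptase, the protease that works with prostasin, was called lower at −0.76 (SE 0.08), from 266 to 281 CPM down to 137 to 179 CPM. RAB25, an epithelial small GTPase of recycling, was level, at 63.4, 65.8 and 64.4 CPM against 61.1, 63.6 and 74.0 CPM, with a log2 fold change of 0.04 and a 95% interval from −0.11 to 0.18. These 4 genes summed to 535 to 561 TPM in the first group and 560 to 765 TPM in the second.

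CDH1, a general epithelial marker, stayed present in both LoVo groups. CDH1 had 4448 to 5472 counts in the libraries labelled control and 3251 to 3518 in those labelled TWIST1 shRNA. VIM had 1760 to 2236 counts in the first group and 175 to 239 in the second, whereas the 20 mesenchymal genes summed to 316 to 333 TPM and 426 to 543 TPM. Markers of other epithelia moved with the groups. The 15 markers of gastric or pancreatobiliary epithelium summed to 127 to 141 TPM in the libraries labelled control, with 4 of them at 0, and to 331 to 448 TPM in those labelled TWIST1 shRNA, with 6 at 0. Of the 4 that were tested, ANXA10 and KRT7 were called higher (log2 fold changes 7.36 and 5.30) and TFF2 lower (−5.47). Over all genes tested, 26.6% were called higher and 26.1% lower. The 10 fibroblast markers summed to 2.16 to 2.89 TPM and 21.3 to 27.5 TPM, and the 6 hepatocyte markers to 0.446 to 0.946 TPM and 3.91 to 5.31 TPM. The sums were 2.08 to 2.51 TPM and 0.724 to 0.989 TPM for 6 endothelial markers, 1.05 to 2.39 TPM and 0.708 to 0.908 TPM for 6 leukocyte markers, and 5.62 to 6.26 TPM and 11.5 to 13.8 TPM for 8 melanocyte and neural markers. The part of these markers in the differences of the members was not tested.

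Only KLF5 and GATA6 were tested in each line's own fit, so only for them could the difference in LoVo be set against that in the clones. GATA6 differed by −2.54 (SE 0.11, edgeR adjusted p = 5.17e-20) between the LoVo effect and the mean effect of the 5 clones. KLF5 differed by −0.33 (SE 0.08, edgeR adjusted p = 0.000632). Both members were therefore lower by more in the LoVo comparison than over the clones, but 78.7% of the 12132 genes tested in both lines also differed in this test. The LoVo libraries labelled TWIST1 shRNA are those in which TWIST1 was counted.

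Other genes of intestinal epithelium, on lists drawn up alongside the members, were not all lower where the label was TWIST1 shRNA. For these lists, the shares over all 14270 genes tested in LoVo were 26.1% called lower and 26.6% called higher. Lists of few genes cannot be read closely against those shares. Of 18 tested among 20 other intestinal and endodermal transcription factors, 10 were called lower and 4 higher. FOXA2 was lower (log2 fold change −3.61), while FOXA3 was higher (3.78). Of 18 tested among 30 other enterocyte and brush border genes, 13 were called lower and 3 higher. CDHR1, EPS8L3 and GUCY2C were lower by more than the median member (−4.11, −4.04 and −3.91), and SLC15A1, the peptide transporter, went from 0 counts to 82 to 97.

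Of 22 other epithelial membrane genes, all tested, 13 were called lower and 3 higher. GPX2, TMPRSS2 and C1orf116 were lower (log2 fold changes −3.86, −3.61 and −3.50). Among 7 tested genes of crypt base stem cells, 4 were called lower, LGR5 at −4.09 and PTPRO at −4.07 among them, and 1 higher. Among 6 tested goblet and secretory genes, 3 were called lower and 3 higher, with REG4 at −6.20 and MUC2 at −2.85. Of 5 grainyhead and ovo factors, which maintain epithelia, 2 were called lower, OVOL2 at −2.50 and GRHL3 at −1.71. None of 9 enteroendocrine genes reached a testable level.

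The final question was whether the TWIST1 peak lists mark these genes. In MDST8, 25 of the 32 members had a listed peak within 3000 bp of the 5′ end of the gene, with 39 peaks in all, against 70.8% of 20044 protein-coding genes. In LoVo, 13 members had one, with 18 peaks, against 57.2% of protein-coding genes. TWIST1 had 0 counts in the LoVo libraries labelled control, and how the LoVo list relates to the level of TWIST1 was not tested. Peaks were found at 11 members in both lists and at 5 in neither. The lists hold every peak with p below 0.05 from 1 library per line, so that most genes in the genome have a listed peak and no replicate error can be given.

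The peaks near members were weak ones. Their median fold enrichment was 2.29 in MDST8 and 2.42 in LoVo, and their p-values, as the peak caller gave them, ran from 3.41e-05 to 0.04 and from 0.000118 to 0.0486. No peak near a member reached a q-value of 0.05. Such a peak was rare in general, at 0.469% of protein-coding genes in MDST8 and 0.359% in LoVo. The lowest q in MDST8 was 0.274, at a peak of 3.66-fold enrichment in FABP1 (chr2:88126363-88126750, hg38). In LoVo it was 0.426, at a peak of 3.30-fold enrichment in CDX1 (chr5:150168017-150168440). A LoVo peak at KRT20 (chr17:40885170-40885600) had its summit 6 bp from the 5′ end, in the promoter printed above, with a fold enrichment of 2.97 and a q of 0.751.

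**Figure D4:**
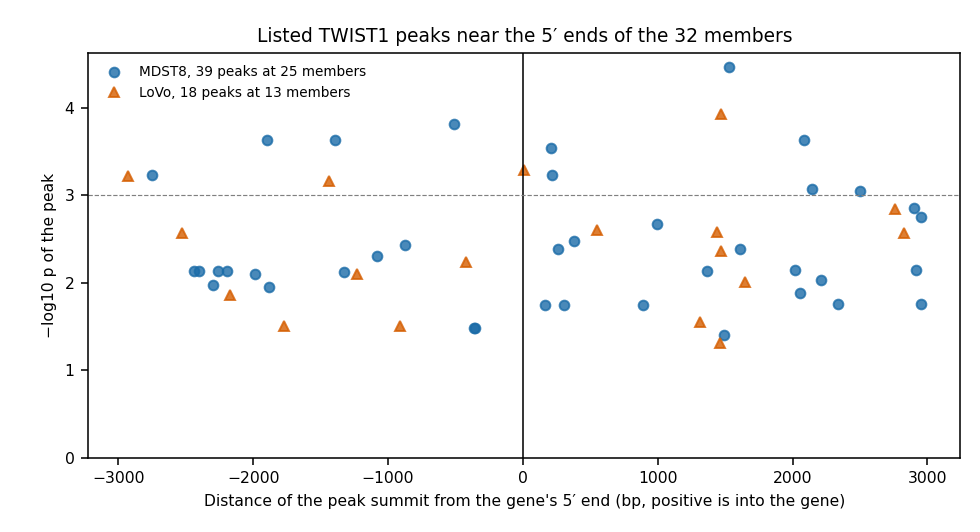
Each point is a listed TWIST1 peak near 1 of the 32 members, placed by the distance of its summit from the gene's 5′ end (bp, positive into the gene) and by its −log10 p; the dashed line lies at 3 on that axis. The 39 MDST8 peaks (circles) and 18 LoVo peaks (triangles) are spread over the whole window, and most lie below the line.

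The counts moved with the rule for a peak. With peaks of p at most 0.001, 10 members had one in MDST8 and 4 in LoVo, against 23.2% and 17.3% of protein-coding genes. Within 1000 bp the numbers were 12 and 4, against 46.7% and 30.5%. The 5′ end used here is the outermost one in the count tables, and for 6 members (AGR2, CEACAM6, EHF, GPA33, MUC13 and TSPAN8) every RefSeq start lies more than 3000 bp away from it. With the 5′ ends of every GENCODE 44 transcript, a rule added after the data were seen, 30 members had a peak in MDST8 and 24 in LoVo, against 83.8% and 77.6% of protein-coding genes.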

How the data were processed

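PolyA RNA was sequenced in 24 libraries (8 groups of 3) and TWIST1 ChIP DNA in 1 library per line. Per the file headers and the submitters' processing notes, the authors trimmed reads with Trim Galore 0.6.6, aligned them to hg38 with HISAT2 2.1.0 and SAMtools 1.6, and deposited raw counts per GENCODE 43 gene from featureCounts 2.0.0, without using strand although the libraries were stranded. For ChIP they used Bowtie2 2.4.5 and MACS2 2.2.7.1. The deposited peak lists give a score, a fold enrichment ratio, and −log10 p-values and q-values, kept at p below 0.05, with use of the input not stated.

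Groups came from the labels. Genes were tested where the geometric mean of RPM + 1, minus 1, was at least 1 over the libraries of a fit (18 MDST8, 6 LoVo or all 24), with edgeR 4.0.16 (TMM, quasi-likelihood F test, R 4.3.3) and Benjamini-Hochberg adjustment over all genes tested. A gene was called if its log2 fold change passed 0.58 in size with an adjusted p below 0.05. CPM were scaled by TMM within each table, not over all 24 libraries as first planned, and TPM from exon length. Intervals are 1.96 SE. Between 16567606 and 22217009 counts per library were deposited, where 3 counts, the floor used for bounds, are 0.155 to 0.162 RPM in WT. Bounds cover counting error only. Fits were tested on simulated counts.

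The members and lists were chosen with earlier results of these data known. Values per library are given for members called in a clone, called in LoVo with an absolute log2 fold change above 2, or that are transcription or splicing factors, and at most 4 genes are named per other list, those with the largest called changes, of which a few are not reported here. Some transmembrane and trafficking members outside that rule are also given by library. Alternatives were RLE and upper-quartile scaling, DESeq2 1.42.0, limma 3.58.1 (voom, log2(count + 1) and log2(RPM + 1)), 3 other filters, fits restricted to both groups of a comparison, the replicate block, and leaving out each library. Peaks used windows of 1000 and 5000 bp and stricter p and q. ChIP input libraries were not analysed here.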

Additional observations from a re-analysis of the deposited data

Results flagged for a closer look

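Groups of 3 libraries are too small for a test of single outlying libraries, and none was made. The members below were picked out because their difference from WT varied between clones, or between the cell lines, by a test of that difference itself. KLF5 differed among the 5 clones (edgeR adjusted p = 2.78e-08), between −0.95 in clone 3.6 and 0.02 in clone 2.2. GATA6 did so (edgeR adjusted p = 7.19e-06), between −0.83 in clone 2.2 and 0.06 in clone 3.6. CDHR2 did so as well (edgeR adjusted p = 0.000958), between 0.06 in clone 2.2 and 0.92 in clone 3.2. The clones labelled with the same guide, 3.2, 3.5 and 3.6, spanned −0.64, −0.54 and −0.95 for KLF5. Between the lines, the LoVo difference was lower than the mean clone difference by a log2 value of −0.33 for KLF5 and −2.54 for GATA6.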

How the results depend on the processing

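Of the log2 fold changes of members recomputed under the alternatives, 1184 kept their direction and call, 8 gained a call, 4 lost one and 4 changed sign; of the counts, 287 stayed within 1.5 times and 29 did not. The changes of sign were in differences near 0: RAB25 in LoVo was −0.020 with no filter, and when 1 library was left out it ran from −0.051 (without TWIST1 shRNA replicate 3) to 0.11, KLF5 in clone 2.2 from −0.044 (without WT B) to 0.14, and CDHR2 in clone 2.2 from −0.039 (without WT C) to 0.14. The LoVo counts of 25 lower and 3 higher held under every alternative run but the RPM filter without the offset, which tests fewer genes and gave 23 and 3. On the log2(RPM + 1) scale, which shrinks low genes, ISX was −3.92, CDHR5 −1.97 and FABP1 −1.57. In the clones, limma on log2(count + 1) gave 0 members called lower in clone 3.2 and 1 in clone 3.5, and on log2(RPM + 1) it gave 0 higher in clone 3.6 and 0 higher in WT MDST8 against LoVo labelled TWIST1 shRNA, where CDHR2 was the member lost. With no filter, members called lower were 1 in clone 1.1, 3 in 2.2, 2 in 3.2 and 2 in 3.6, members called higher in 3.6 were 2, and 5 differed among clones. With filterByExpr, 2 were lower in clone 2.2 and 2 higher in clone 3.6. A geometric mean of RPM without the offset left 4 members lower in MDST8 against either LoVo group, since it tests fewer genes. Leaving out 1 library gave 0 to 1 called lower in clones 1.1, 3.2 and 3.5 and 0 to 1 higher in clone 3.5. For peaks, members numbered 12 and 4 (MDST8 and LoVo) at 1000 bp, 29 and 18 at 5000 bp, 10 and 4 at p up to 0.001, 0 and 0 at q up to 0.05, and 30 and 24 with every transcript. The shares of protein-coding genes were 82.1% and 71.9% at 5000 bp and 0.469% and 0.359% at q up to 0.05. Those of the other rules are given above. With the replicate letter as a replicate block, GATA6 in clone 2.2 was −0.83 (edgeR adjusted p = 5.88e-06) and KLF5 in clone 3.6 −0.94, and no member's call changed. Deviations of same-letter libraries correlated between −0.15 and 0.12 over 45 pairs, so the letters do not pair the samples, and the LoVo groups share no replicate names.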

Other observations

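In MDST8, some epithelial genes outside the 32 members differed between clones and WT. The members without counts in WT did not reach a testable level. Genes named here were picked for their large called changes and do not stand for their lists. Of all 13706 genes tested, 8.05 to 15.3% per clone were called higher and 6.09 to 11.7% lower. CA2, the cytosolic carbonic anhydrase of colonocytes, was called higher than WT in all 5 clones, with log2 fold changes from 1.54 in clone 3.5 to 3.26 in clone 3.6, and had 12 to 22 counts in WT and 175 to 198 in clone 3.6. MUC1, a transmembrane mucin, was called higher in all 5 clones, by 1.15 in clone 3.2 to 1.97 in clone 3.5. Desmosomal and junction genes split the clones. JUP, which encodes plakoglobin, was called higher in clones 1.1 and 3.5 (log2 fold changes 4.36 and 5.05, with 405 to 477 and 607 to 718 counts against 18 to 23 in WT) and lower in clones 2.2 and 3.6 (−0.70 and −1.50). DSP, which encodes desmoplakin, was called higher in clones 1.1, 3.2, 3.5 and 3.6 (1.15, 1.69, 3.10 and 2.81) and had 53 to 64 counts in clone 2.2 against 58 to 89 in WT.

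Among 13 tested intestinal and endodermal transcription factors outside the members, clones called 2 to 4 higher and 1 to 3 lower. The shares of all genes were 8.05 to 15.3% higher and 6.09 to 11.7% lower, and counts of so few genes cannot be read closely against them. PRDM1, the repressor known as Blimp-1, was higher in all 5 clones (0.66 to 1.47) and MYB, a factor of crypt progenitors, was lower in all 5 (−1.21 to −0.61). Of 4 tested crypt base genes, SLC12A2 was higher (0.60 to 0.96) and CDCA7 lower (−0.91 to −0.72) in every clone. All clones were compared with the same WT libraries, and the share of all genes called in the same direction in every clone was not counted.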
